A study of Mus musculus with 21 samples.

Results

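The genes described here are 10 genes known for muscle atrophy or for the glucocorticoid response, measured in mouse hearts: *Trim63*, *Fbxo32*, *Foxo1*, *Foxo3*, *Mstn*, *Klf15*, *Sgk1*, *Fkbp5*, *Tsc22d3* and *Ddit4*. They were chosen by name for their known roles, with no threshold on their values but with earlier results of these data known. They are 10 of the 56691 genes in the table. All 10 passed the filter on low values, an average over the 21 libraries of 0.5 FPKM or more (reads per kb of gene, scaled to the library's total), as did 13990 genes in all.

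Muscle that shrinks degrades its contractile proteins through the ubiquitin-proteasome system, and the ubiquitin ligases MuRF1 (*Trim63*) and atrogin-1 (*Fbxo32*) tag them for it. The forkhead factors FOXO1 and FOXO3 switch on both ligase genes unless insulin and Akt signalling keeps them out of the nucleus, and myostatin (*Mstn*) is a secreted inhibitor of muscle growth. Glucocorticoids act through their receptor on DNA and induce *Klf15*, *Sgk1*, *Fkbp5*, *Tsc22d3* and *Ddit4* in many tissues, so that these genes are commonly read as a sign of hormone action, and in skeletal muscle the hormone is a classic cause of atrophy.

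Heart RNA was sequenced in 21 libraries of 4 groups. The Control group (n = 5) was given normal saline, the DOX group (n = 5) was given doxorubicin (DOX), an anthracycline that intercalates into DNA, the Tb group (n = 6) bore a 4T1 tumor and was given saline, and the Tb-DOX group (n = 5) bore the tumor and was given DOX. 4T1 is a mouse mammary carcinoma cell line, grafted under the skin, and DOX was injected into the abdomen once a week. The tumor is the graft of 1 cell line in all tumor-bearing mice, the schedule of saline is not given, and the strain, sex and age of the mice are not given in the sources used here. In the labels the tumor line stands as the source also of libraries from mice without a tumor, whereas the study's methods describe hearts. The summed level of 7 cardiomyocyte markers was 43220 to 81620 CPM (a count as a share of its library, scaled by TMM, a method that sets libraries on 1 scale by their typical gene), and that of 5 epithelial markers of the tumor line was at most 4.60 CPM. Nothing says that replicates came from separate mice, so that p-values measure the spread between these libraries, which may be technical.

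Libraries held 13521200 to 18601445 counts. A pair of libraries stood apart from their group: DOX replicate 4, in which 5.23% of genes lay over 2-fold from the group median, and Tb replicate 5, with 15.7%, against 0.407% to 3.79% in the other libraries. T cell markers summed to 312 CPM in DOX replicate 4 and to 5.48 to 14.7 CPM in the other DOX libraries, and neutrophil markers summed to at most 54.3 CPM without a tumor and to 483 to 4248 CPM with one. Skeletal muscle markers, of the tissue in which the atrophy genes are best known, summed to 2.225 to 24.9 CPM over all libraries. The medians were 2.88 CPM in Control, 19.7 in DOX, 9.14 in Tb and 4.91 in Tb-DOX. Control replicate 4, at 23.1 CPM, lay in the DOX range, and the part of these markers in the results was not tested. In whole hearts, fewer cells of a type and less RNA per cell cannot be told apart.

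Promoters are shown for the 3 genes in whose start regions letters of a glucocorticoid or FOXO motif were found and which the results below turn on. The windows hold 250 bases before and 50 after the start (RefSeq, build GRCm38.p6), and 9 of the 10 genes matched, with 16 windows in all; *Fbxo32* is the gene not matched. Capitals mark 4 motifs, each searched on both strands. An arm of the glucocorticoid element was spelled AGAACA. A full element is an arm, a gap of 3 bases of any kind and the arm's reverse complement. The motif of FOXO factors was spelled GTAAACA. The box that often lies just before a start was spelled TATAAA.
Trim63, chr4:134314870-134315169, plus strand: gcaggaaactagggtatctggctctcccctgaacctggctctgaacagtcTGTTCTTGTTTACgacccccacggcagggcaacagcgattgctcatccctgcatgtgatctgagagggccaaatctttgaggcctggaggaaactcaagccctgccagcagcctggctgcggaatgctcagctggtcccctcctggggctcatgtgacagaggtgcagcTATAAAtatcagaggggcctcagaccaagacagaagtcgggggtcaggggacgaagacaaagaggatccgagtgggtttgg
Sgk1, chr10:21993640-21993939, plus strand: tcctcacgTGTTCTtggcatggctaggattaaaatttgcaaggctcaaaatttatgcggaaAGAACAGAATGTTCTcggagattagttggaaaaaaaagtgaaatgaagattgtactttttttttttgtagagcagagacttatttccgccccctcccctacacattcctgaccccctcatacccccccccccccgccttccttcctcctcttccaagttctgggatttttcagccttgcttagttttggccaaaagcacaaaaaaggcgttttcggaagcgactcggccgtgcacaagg
Tsc22d3, chrX:140600473-140600772, minus strand: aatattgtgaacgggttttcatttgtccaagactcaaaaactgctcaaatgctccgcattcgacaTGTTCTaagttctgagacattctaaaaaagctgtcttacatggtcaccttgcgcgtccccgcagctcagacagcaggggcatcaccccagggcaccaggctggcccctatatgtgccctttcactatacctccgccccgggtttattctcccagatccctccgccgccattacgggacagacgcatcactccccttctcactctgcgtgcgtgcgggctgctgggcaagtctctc
In the *Trim63* window an arm began at −200 from the start and the FOXO motif began at −194, directly after it, with TATAAA at −31. In the *Sgk1* window, 1 of 6 of that gene, the full element began at −189, and 2 of the window's 3 arms lie inside it. In the *Tsc22d3* window, 1 of 3 of that gene, an arm alone began at −185. Of 32851 promoter windows of the same length, 0.00913% (3 windows) held the full element, 19.0% an arm, 3.65% the FOXO motif and 13.6% TATAAA. The windows of *Foxo1*, *Foxo3*, *Klf15*, *Fkbp5* and *Ddit4* held none of these letters, which says nothing of elements elsewhere. These matches are a description of the letters and not of bound sites.

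Positions in the deposited table are of build GRCm39 and cannot be set beside those of the promoter windows. Of the ligase genes, *Trim63* (ENSMUSG00000028834) lies at 134042431 to 134056940 on chromosome 4 (plus strand) and *Fbxo32* (ENSMUSG00000022358) lies at 58039275 to 58078328 on chromosome 15 (minus strand). Of the FOXO genes, *Foxo1* (ENSMUSG00000044167) lies at 52175757 to 52260642 on chromosome 3 (plus strand) and *Foxo3* (ENSMUSG00000048756) lies at 42057837 to 42152751 on chromosome 10 (minus strand), and the myostatin gene *Mstn* (ENSMUSG00000026100) lies at 53100799 to 53107238 on chromosome 1 (plus strand). Of the hormone targets, *Klf15* (ENSMUSG00000030087) lies at 90439558 to 90452220 on chromosome 6 (plus strand), *Fkbp5* (ENSMUSG00000024222) lies at 28618068 to 28736501 on chromosome 17 (minus strand) and *Tsc22d3* (ENSMUSG00000031431) lies at 139440277 to 139501408 on chromosome X (minus strand). On the chromosome that also holds *Foxo3*, *Sgk1* (ENSMUSG00000019970) lies at 21758083 to 21875802 on chromosome 10 (plus strand) and *Ddit4* (ENSMUSG00000020108) lies at 59785491 to 59787656 on chromosome 10 (minus strand).

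Per kb of gene, the ligase *Trim63* had the highest level of the 10 in Control hearts at 67.5 ± 8.85 FPKM (SD, n = 5). *Tsc22d3* at 44.0 ± 12.5, *Ddit4* at 36.9 ± 9.04 and *Fbxo32* at 28.1 ± 3.97 FPKM followed, and neighbours among these 3 did not differ beyond their spread. *Klf15*, *Sgk1* and *Foxo3* lay together at 16.4 ± 3.75, 15.7 ± 1.496 and 15.2 ± 3.15 FPKM. *Fkbp5* at 4.83 ± 2.89 and *Foxo1* at 3.09 ± 0.235 FPKM overlapped each other, and *Mstn* was lowest at 0.71 ± 0.348 FPKM, on 2 to 52 counts per library over the whole series. Over all 21 libraries *Trim63* stood above 97.7% of the genes tested, and *Mstn* above 1.29%.

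**Figure D1:**
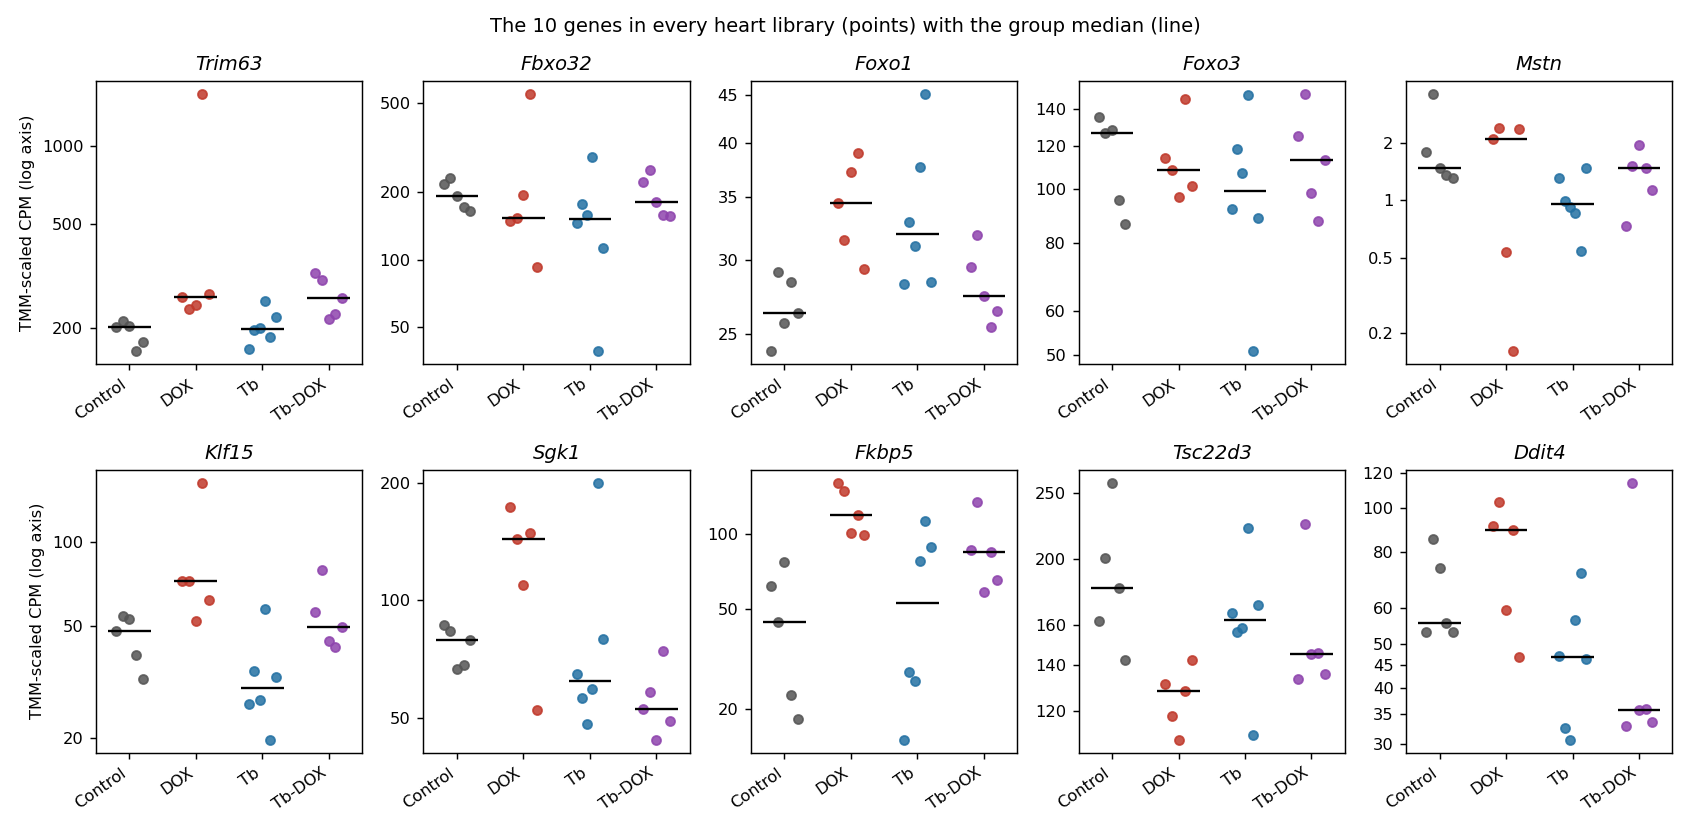
TMM-scaled CPM of each gene (log axis, a different range in each panel) in every library of the Control, DOX, Tb and Tb-DOX groups, with points for libraries and a line for the group median. In the DOX group, *Trim63* shows 1 library at 1592 CPM far above the others at 236 to 270.3, while the 5 *Fkbp5* values lie close together at 99.7 to 161 CPM, above all Control values.

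DOX against Control asks what the drug did to these genes in hearts without a tumor. *Trim63*, *Foxo1*, *Klf15* and *Fkbp5* rose and *Tsc22d3* fell, so that 5 of the 10 genes passed an adjusted p under 0.05, where 36.2% of the 13990 genes tested passed. By direction, 4 were higher, against 18.0% of all genes, and 1 was lower, against 18.2%. The median log2 fold change of the 10 was 0.32, and that of all genes was 0.00. *Trim63* and *Fkbp5* also changed by 1 or more on the log2 scale, as did 9.95% of all genes. Without DOX replicate 4, *Trim63*, *Fkbp5* and *Tsc22d3* were the 3 that passed, and in limma on log2(FPKM + 0.1) *Fkbp5* (1.504, adjusted p = 0.0179) and *Tsc22d3* (−0.70, adjusted p = 0.00809) were the 2 that passed. In 4 of the 10, *Trim63*, *Foxo1*, *Fkbp5* and *Tsc22d3*, the libraries of the groups did not overlap, as in 25.3% of all genes tested. Between DOX and Control hearts the cardiomyocyte marker sum also differed without overlap (69300 to 81620 against 49740 to 65260 CPM), and so did the atrial sum (394 to 753.5 against 101 to 378 CPM). Erythroid markers summed to 4.74 to 132.5 against 204 to 797 CPM and macrophage markers to 27.7 to 53.5 against 68.3 to 78.4 CPM, both lower in DOX. T cell markers (5.48 to 312 against 0.981 to 2.52 CPM) and neutrophil markers (6.92 to 54.3 against 2.40 to 4.38 CPM) were higher in every DOX library. Over 21 libraries with group means removed, the T cell sum went with *Trim63* (r = 0.75), *Foxo1* (0.63) and, in the other direction, *Mstn* (−0.68), DOX replicate 4 having the highest sum. Values as large were found for *Fkbp5* with the epithelial sum (0.755), and for *Sgk1* (0.73) and *Tsc22d3* (−0.70) with the endothelial sum. These are among the largest over all marker sums and genes. The part of these markers in the results was not tested. Scaled by library totals in place of TMM, the median of all genes moved from 0.00 to −0.14, the share of called genes that were higher moved from 49.8% to 28.7%, and 4 of the 10 genes passed, since *Foxo1* then stood at 0.23 (adjusted p = 0.135).

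**Figure D2:**
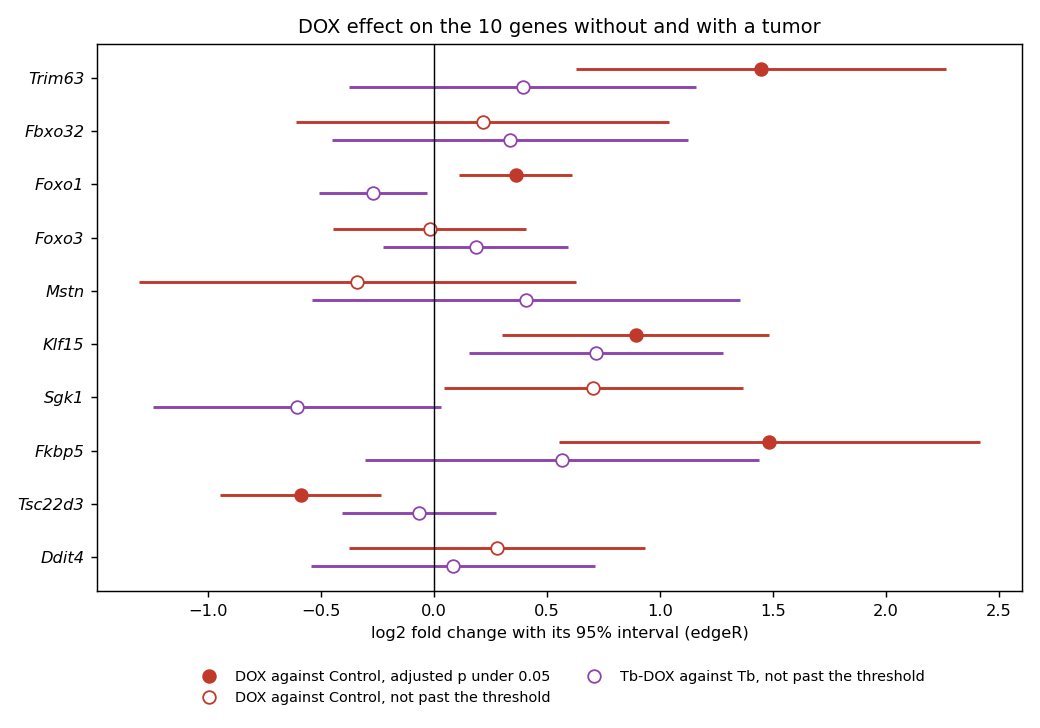
Log2 fold change (horizontal axis) of the 10 genes for DOX against Control (red) and Tb-DOX against Tb (purple), with 95% intervals from edgeR; filled points passed an adjusted p under 0.05. 5 red points are filled and no purple one is, and the intervals of *Klf15* lie above 0 in both comparisons.

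Of the ubiquitin ligases, *Trim63* (MuRF1, which targets thick-filament proteins) read 201, 211, 204, 163 and 176 CPM in Control and 262, 236, 244, 1592 and 270.3 CPM in DOX hearts. Every DOX library was above every Control library, and replicate 4 was over 5 times the other DOX values. The log2 fold change was 1.45 (SE 0.395, 95% interval 0.63 to 2.27, adjusted p = 0.00693), and without DOX replicate 4 it was 0.41 and still passed (adjusted p = 0.021). DESeq2 gave *Trim63* no adjusted p in any comparison, and its fold change was 1.46 here. *Trim63* mean levels were 191 ± 20.6 CPM in Control (SD, n = 5) and 521 ± 599 CPM in DOX (SD, n = 5), so that 1 library carried most of the mean difference. That library was also the one with T cell markers at 312 CPM, whose part was not tested.

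*Fbxo32* (atrogin-1, the substrate-binding part of an SCF ligase) read 218, 230.5, 193, 172.5 and 165.5 CPM in Control and 149, 154, 194, 548 and 92.9 CPM in DOX. The groups overlapped: 3 DOX libraries lay below every Control library, 1 lay among them and replicate 4 lay far above. Its log2 fold change of 0.22 (SE 0.398, 95% interval −0.61 to 1.04, adjusted p = 0.702) turned to −0.40 (adjusted p = 0.377) without DOX replicate 4. The gene's span overlaps *Gm15943* on the other strand, which reached 85 counts at most against at least 648 for *Fbxo32*, and the strand setting of the counting is not given.

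*Foxo1*, a FOXO factor that insulin signalling restrains, read 24.0, 29.1, 25.7, 28.4 and 26.4 CPM in Control and 34.5, 31.5, 37.3, 39.1 and 29.35 CPM in DOX. The lowest DOX library was just above the highest Control library. The rise was 0.36 (SE 0.120, 95% interval 0.11 to 0.61, adjusted p = 0.0225), the smallest among the genes called and the one with the smallest spread. It missed the threshold when Control replicate 1, DOX replicate 3 or DOX replicate 4 was left out (adjusted p = 0.0518 to 0.0586), and with no filter on low values (0.37, adjusted p = 0.0503). *Foxo3*, which in skeletal muscle drives *Fbxo32*, ranged over 86.4 to 136 CPM in Control and 96.9 to 146 CPM in DOX, with a log2 fold change of −0.02 (95% interval −0.44 to 0.41, adjusted p = 0.961).

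*Mstn* was at 1.31 to 3.64 CPM in Control and 0.161 to 2.40 CPM in DOX, on 2 counts in its lowest library, DOX replicate 4. Its difference of −0.34 (95% interval −1.30 to 0.63, adjusted p = 0.597) was within the spread, with an SD of 0.99 on the log2 scale among the DOX libraries.

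Among the hormone targets, *Klf15*, a factor that turns on amino acid breakdown, read 48.1, 54.5, 53.2, 39.5 and 32.3 CPM in Control and 72.7, 72.75, 52.1, 163 and 62.3 CPM in DOX. Replicate 4 was again highest, and the lowest DOX library lay below 2 Control libraries. *Klf15* rose by 0.89 on the log2 scale (SE 0.285, 95% interval 0.30 to 1.48, adjusted p = 0.0180). Without DOX replicate 4 the value was 0.52 and did not pass (adjusted p = 0.107), and it also missed the threshold without Control replicate 5 (0.79, adjusted p = 0.0505).

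*Fkbp5*, a co-chaperone that holds the glucocorticoid receptor in a low-affinity state and is induced by it, read 62.05, 44.7, 77.1, 22.6 and 18.25 CPM in Control and 161, 149, 101, 119 and 99.7 CPM in DOX. All DOX libraries were above all Control libraries, which themselves spanned 4.23-fold. Its log2 fold change of 1.49 (SE 0.450, 95% interval 0.55 to 2.42, adjusted p = 0.0134) was the largest of the 10 and stayed between 1.29 and 1.78 with any library left out.

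*Tsc22d3* (GILZ, an anti-inflammatory leucine zipper protein) went the other way, at 162, 201, 259, 181 and 142.6 CPM in Control and 131, 118, 109, 128 and 142.3 CPM in DOX. The groups touched without crossing, since the highest DOX value was just under the lowest Control value. *Tsc22d3* fell by 0.59 on the log2 scale (SE 0.172, adjusted p = 0.0109), and values from −0.68 to −0.44 were found with single libraries left out. *Fkbp5* and *Tsc22d3*, both classic receptor targets, thus moved in opposite directions in the same hearts.

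*Sgk1*, a kinase that inhibits FOXO factors much as Akt does, read 86.6, 83.5, 66.8, 68.6 and 79.1 CPM in Control and 173, 143, 109.8, 149 and 52.4 CPM in DOX. In DOX hearts 4 libraries were above every Control library and replicate 5 was below all of them. The log2 fold change was 0.71 (SE 0.319, 95% interval 0.04 to 1.37, adjusted p = 0.0871), and it passed without DOX replicate 5 (0.91, adjusted p = 0.0208). It also passed without Tb replicate 5 (0.71, adjusted p = 0.00989) and with only the DOX and Control libraries fitted (0.71, adjusted p = 0.0277), so that the call also turned on a library outside the comparison. *Ddit4* (REDD1, an inhibitor of mTORC1) was at 53.1 to 85.6 CPM in Control and 46.9 to 103.5 CPM in DOX, with a log2 fold change of 0.28 (95% interval −0.37 to 0.94, adjusted p = 0.508).

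**Figure D3:**
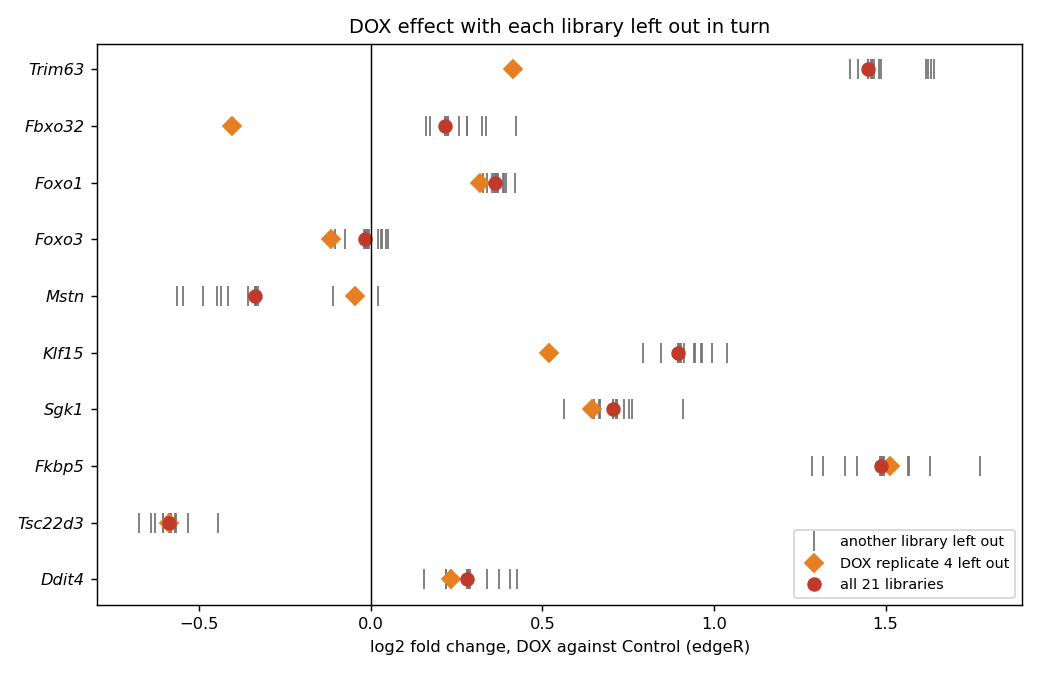
Log2 fold change (horizontal axis) of each gene for DOX against Control with all 21 libraries (red circle), with DOX replicate 4 left out (orange diamond) and with any other library left out (grey bars). *Trim63* moved from 1.45 to 0.41, *Klf15* from 0.89 to 0.52 and *Fbxo32* from 0.22 to −0.40 without that library, while *Fkbp5* and *Tsc22d3* stayed near 1.49 and −0.59.

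With both libraries that stood apart left out, a choice made after seeing the data, 5 genes passed in DOX against Control. *Trim63* was then at 0.41 (adjusted p = 0.0146), *Foxo1* at 0.31 (0.0201), *Sgk1* at 0.64 (0.0280), *Fkbp5* at 1.503 (0.00942) and *Tsc22d3* at −0.60 (0.00737), each with its adjusted p from edgeR. *Klf15* was at 0.51 and did not pass (adjusted p = 0.0611). The set of 5 therefore gained *Sgk1* and lost *Klf15*.

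Tb-DOX against Tb asks the same of the drug in tumor-bearing hearts, on libraries that the first comparison does not use. The spread of each gene was still fitted over all groups. None of the 10 genes passed in edgeR, nor any of the 9 to which DESeq2 gave an adjusted p, where 4.72% of all genes tested passed in edgeR (2.18% higher, 2.54% lower, and 1.11% by 1 or more on the log2 scale), and 2 of the 10, *Foxo1* and *Klf15*, were at an unadjusted p under 0.05, as were 2855 of the 13990 genes tested. Between Tb-DOX and Tb the cardiomyocyte marker sum (56750 to 70150 against 43220 to 51220 CPM) and the erythroid sum (2.41 to 28.9 against 370 to 832 CPM) did not overlap, and their part in the results was not tested. *Klf15* was at 19.7 to 57.5 CPM in Tb with a median of 30.1 CPM, and at 56.2, 79.4, 44.3, 42.1 and 49.9 CPM in Tb-DOX. All 10 genes overlapped between the groups, while 4.96% of genes tested did not. For *Klf15* the highest Tb library alone, replicate 4, reached into the Tb-DOX range. The log2 fold change of *Klf15* was 0.72 (SE 0.271, 95% interval 0.15 to 1.28, adjusted p = 0.133), and without Tb replicate 4 it was 0.96 and passed (adjusted p = 0.0453). No other omission of a single library passed, with values down to 0.54 without Tb-DOX replicate 2 (edgeR, adjusted p up to 0.316).

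*Trim63* ranged from 166 to 254 CPM in Tb with a median of 197 CPM, and read 326, 306, 216, 225 and 261 CPM in Tb-DOX. Every Tb-DOX library lay above the Tb mean, but the groups overlapped, and the log2 fold change was 0.39 (95% interval −0.37 to 1.16, adjusted p = 0.599). That interval rests on a spread fitted over all 21 libraries, DOX replicate 4 among them. The SD of *Trim63* on the log2 scale was 0.21 in Tb and 0.26 in Tb-DOX, but 1.19 in DOX. With single libraries left out the difference was 0.31 to 0.47. It did not pass in any of these fits (edgeR, adjusted p = 0.0569 to 0.741). *Fkbp5* spread from 15.02 to 113 CPM in Tb, with a median of 53.1 CPM, and read 86.5, 135, 58.6, 84.9 and 65.9 CPM in Tb-DOX. In the Tb group 3 libraries lay at 28.2 CPM or below and 3 at 78.1 CPM or above, and the difference of 0.57 (95% interval −0.30 to 1.44, adjusted p = 0.478) was within that spread.

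*Foxo1* was at 28.3 to 45.1 CPM in Tb with a median of 31.99 CPM, and at 29.5, 31.9, 27.45, 25.5 and 26.4 CPM in Tb-DOX. The difference was −0.27 (SE 0.115, 95% interval −0.51 to −0.03, adjusted p = 0.184). Without Tb replicate 5, which held the highest *Foxo1* value in Tb, it was −0.17. *Sgk1* was lowest in Tb at 48.4 CPM, had a median of 62.2 CPM and a top value 4.13 times the lowest, and was at 52.8, 58.35, 44.1, 74.3 and 49.3 CPM in Tb-DOX. The top Tb value belonged to replicate 5, and the difference of −0.60 (adjusted p = 0.275) shrank to −0.14 (adjusted p = 0.769) without it.

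The other 5 genes did not pass with DOX in tumor-bearing hearts, and their intervals all include 0. *Fbxo32* stood at 0.34 (95% interval −0.45 to 1.13), *Foxo3* at 0.19 (−0.22 to 0.59) and *Mstn* at 0.41 (−0.54 to 1.36) on the log2 scale. *Tsc22d3*, the gene that fell without a tumor, stood at −0.07 (−0.41 to 0.28) and *Ddit4* at 0.08 (−0.54 to 0.71).

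Whether the drug effect itself differed between hearts with and without a tumor was tested as the interaction, the DOX effect with a tumor minus that without. *Foxo1* alone of the 10 passed, where 8.94% of all genes tested passed (3.89% with an absolute log2 difference of 1 or more). Its DOX effect was 0.36 without and −0.27 with a tumor, a difference of −0.63 (SE 0.166, 95% interval −0.98 to −0.29, adjusted p = 0.0267): all 5 DOX libraries lay above the Control mean and all 5 Tb-DOX libraries below the Tb mean. With library totals in place of TMM the *Foxo1* difference was −0.48 and did not pass (adjusted p = 0.0640), nor did it in limma on log2(FPKM + 0.1) (−0.45, adjusted p = 0.0807) or without DOX replicate 3 (−0.61, adjusted p = 0.0501). Without Tb replicate 5, its highest Tb library, the *Foxo1* difference was −0.54 and still passed. Under library totals the median of all genes stood at 0.14 and the share of called genes that were higher at 76.5% against 44.1%. Male germ cell markers, near the floor, were also crossed over the groups. Their sums had medians of 2.55 CPM in Control, 0 in DOX, 0 in Tb and 2.25 in Tb-DOX. Their r with *Foxo1* over all libraries was −0.64, and −0.14 with group means removed, and their part in this result was not tested. *Sgk1* had the largest difference, −1.31 (SE 0.443, 95% interval −2.23 to −0.39), which missed the threshold (adjusted p = 0.0631) and passed in DESeq2 (−1.34, adjusted p = 0.0242). Without Tb replicate 5, its highest Tb library, the *Sgk1* difference was −0.86 (adjusted p = 0.0734), smaller than that of *Trim63* with all libraries. For *Trim63* the difference of −1.05 (adjusted p = 0.196) became −0.02 without DOX replicate 4. For *Fkbp5* it was −0.92 (95% interval −2.19 to 0.35, adjusted p = 0.326) and for *Tsc22d3* 0.52 (0.03 to 1.02, adjusted p = 0.149), so that a call for both without a tumor and none with one was not shown to be a difference.

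Tb against Control asks what the tumor did without the drug. None of the 10 genes passed in edgeR, nor any of the 9 with an adjusted p in DESeq2, against 6.28% of all genes tested in edgeR (3.60% with an absolute log2 difference of 1 or more), and 1 of them, *Foxo1*, was at an unadjusted p under 0.05, as were 2862 of the 13990 genes tested. The groups overlapped for all 10, and did not for 6.18% of genes tested. *Foxo1* was above the Control mean in all 6 Tb libraries, with a log2 fold change of 0.34 (SE 0.115, 95% interval 0.11 to 0.58, adjusted p = 0.0839), and it passed without Tb replicate 1 (0.39, adjusted p = 0.0391). No other omission of a single library passed, with values from 0.25 (without Tb replicate 5) to 0.40 (edgeR, adjusted p up to 0.204). *Mstn* was below the Control mean in all 6 Tb libraries, at −0.90 (95% interval −1.83 to 0.03, adjusted p = 0.259) on 9 to 26 counts in Tb and 18 to 52 in Control. *Trim63* at 0.09 (95% interval −0.68 to 0.86) and *Fbxo32* at −0.35 (−1.14 to 0.43) did not pass. *Klf15* stood at −0.46 (−1.02 to 0.10) and *Ddit4* at −0.44 (−1.06 to 0.19), with 5 of 6 Tb libraries below the Control mean in each.

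Tb-DOX against DOX asks what the tumor did under the drug, and *Sgk1* alone of the 10 passed, where 17.5% of all genes tested passed (9.52% higher, 7.93% lower, and 5.62% by 1 or more on the log2 scale, as *Sgk1* did). The groups overlapped for all 10, and did not for 14.5% of genes tested. With a tumor its level under DOX was 44.1 to 74.3 CPM, without one 52.4 to 173 CPM, and 1 DOX library, replicate 5, overlapped the Tb-DOX range. *Sgk1* was lower by a log2 fold change of −1.17 (SE 0.322, 95% interval −1.84 to −0.50, adjusted p = 0.0157), and values from −1.38 to −1.03 were found with single libraries left out. The neutrophil marker sum was 766 to 3106 CPM in Tb-DOX and 6.92 to 54.3 CPM in DOX, and its part in this result was not tested. *Trim63* at −0.96 (adjusted p = 0.0910), *Klf15* at −0.64 (0.123), *Foxo1* at −0.29 (0.101) and *Ddit4* at −0.63 (0.173) did not pass, and *Trim63* stood at 0.07 without DOX replicate 4. *Ddit4* read 32.9, 114, 35.7, 35.9 and 33.6 CPM in Tb-DOX, and without the high replicate 2 it was at −1.18 and passed (adjusted p = 0.00278). Under library totals the median of all genes stood at 0.18 and 88.7% of called genes were higher, against 54.5% under TMM.

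The tumor and drug comparisons share groups, so that the same 5 Control or DOX libraries enter more than 1 of the values above. Pooled over the groups, 9 of the 10 genes varied more between libraries of 1 group than the median gene. The pooled within-group SD on the log2 scale was 0.81 for *Fkbp5*, 0.72 for *Fbxo32*, 0.61 for *Trim63*, 0.59 for *Mstn*, 0.54 for *Sgk1*, 0.53 for *Ddit4* and 0.47 for *Klf15*, and the median of all genes tested was 0.26. *Fkbp5* varied more than 98.6% of genes tested. The pooled value of *Trim63* came mostly from DOX hearts (1.19, with replicate 4), and in Control (0.16 against a median of 0.20 over all genes) and Tb (0.21 against 0.28) it lay below the median gene. *Sgk1* also lay below it in Control, at 0.17. *Foxo3* at 0.36 and *Tsc22d3* at 0.29 were nearer the middle, and *Foxo1* at 0.18 varied more than 22.7% of genes only.

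With group means removed, some of the genes were high or low in the same libraries. Over 21 libraries, Pearson's r of log2(CPM + 0.5) was 0.85 between *Foxo3* and *Klf15* (Spearman's rho 0.91), 0.84 between *Fbxo32* and *Foxo3*, 0.81 between *Fbxo32* and *Klf15* and 0.77 between *Trim63* and *Klf15*. Without the libraries that stood apart (19 libraries) these were 0.89, 0.72, 0.63 and 0.77. *Sgk1*, *Ddit4* and *Fkbp5* also went together, with r of 0.50 to 0.56 between pairs and 0.32 to 0.50 without those libraries. Other pairs were then higher. *Fkbp5* stood at 0.75 with *Klf15* and 0.70 with *Trim63* (0.31 and 0.16 over all libraries). *Ddit4* stood at 0.68 with both *Klf15* and *Tsc22d3*. *Fbxo32* and *Foxo1* moved from 0.06 to 0.81, so that the grouping of the genes depended on those libraries. *Sgk1* and *Foxo3* stood at −0.42, and at −0.02 without them, so that this value rested on those libraries. All values come from the same libraries with shared depth and scaling, and are given as a description.

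**Figure D4:**
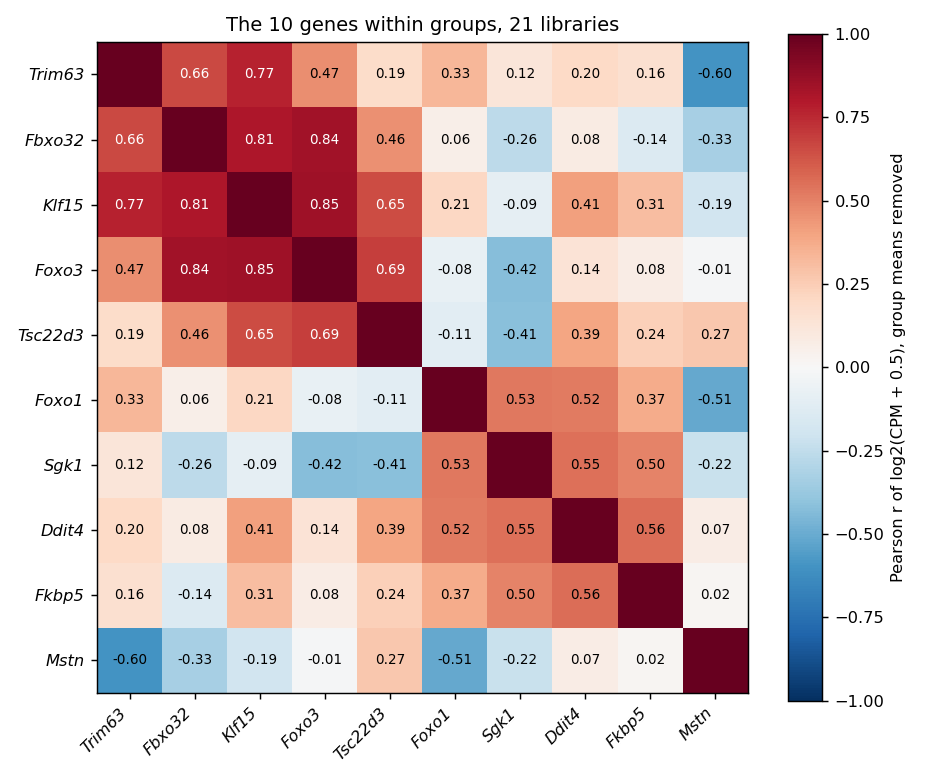
Pearson's r between the 10 genes over 21 libraries after the group means were removed, with red for positive and blue for negative values. *Fbxo32*, *Klf15* and *Foxo3* form a block at 0.81 to 0.85, and *Sgk1*, *Ddit4* and *Fkbp5* stand at 0.50 to 0.56. *Foxo1* is about as high with *Sgk1* (0.53) and *Ddit4* (0.52). Without DOX replicate 4 and Tb replicate 5, *Fkbp5* went more closely with *Klf15* (0.75) than with *Sgk1* (0.32) or *Ddit4* (0.50).

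The genes whose log2(CPM + 0.5) over all 21 libraries was most like a gene's own were named by the highest Pearson's r, group differences included. *Fkbp5* was most like an unnamed gene (ENSMUSG00000120226, r = 0.94), *Gpihbp1* (0.93), which anchors lipoprotein lipase in capillaries, and *Jade2* (0.93), and the 3 values were 0.935 to 0.946 without the libraries that stood apart. *Fbxo32* was most like *Pik3ip1* (0.91), an inhibitor of PI3 kinase, *Sbk1* (0.87) and *Ddx60* (0.87), the last at 0.56 without those libraries. *Foxo3* was most like *Klhl38* (0.86), which lies beside *Fbxo32* on chromosome 15, *Fbxo32* itself (0.85) and *Rsrp1* (0.82), the last at 0.52 without them.

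*Trim63* was most like *BC023105* (0.93), *Gm45276* (0.91) and *Gbp6* (0.91), an interferon-induced GTPase. Without DOX replicate 4 and Tb replicate 5 these were 0.52, 0.81 and 0.77. *Klf15* was most like *A930028N01Rik* (0.91), *Gm44117* (0.88), which lies beside it on the other strand of chromosome 6, and *Fam214a* (0.88). *Sgk1* was most like *Tbx3* (0.90), a T-box factor of the conduction system, *Srsf11* (0.88) and *Als2cl* (0.88).

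*Ddit4* was most like *Rgcc* (0.86), *1810062O18Rik* (0.83) and *Lpin2* (0.82), and *Tsc22d3* most like *Creld1* (0.86), *B4galt4* (0.85) and *Tmem109* (0.84). The r values of *Foxo1* with *Ccdc59* (0.84), *Polr1f* (0.83) and *Riok1* (0.83), and of *Mstn* with *D830024N08Rik*, *Pla2g4e* and *Cep78* (0.78 each), were lower. These are the top 3 of 13990 genes for each, so that high values are bound to be found.

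The pathway around the 10 genes was read from lists of other genes chosen by function, whose counts stand beside 36.2% of all genes called in DOX against Control (18.0% higher, 18.2% lower) and 4.72% in Tb-DOX against Tb. Some lists share genes, so that their counts are not independent. *Irs2*, *Sesn1*, *Eif4ebp1* and *Insr* are on the FOXO target and insulin lists, and *Pik3r1* is on the receptor target and insulin lists. Of these, all but *Irs2* rose in DOX against Control and count in each list. Of the 31 proteasome subunits, which degrade what the ligases tag, 16 rose and none fell in DOX against Control, with a median log2 fold change of 0.24 against 0.00 for all genes. *Psmc1* rose by 0.87 (adjusted p = 1.3e-05), *Psmd4* by 0.80 (0.000281) and *Psma6*, the most abundant of them, by 0.40 (0.00266). Under library totals 7 rose and 2 fell. In Tb-DOX against Tb none of the 31 passed in edgeR and 1 was lower in DESeq2, and 5 passed the interaction, all with a lower DOX effect under the tumor, *Psmc1* at −0.60 and *Psmd11* at −0.60 among them.

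Of 15 other ligases and deubiquitinases tied to atrophy, *Fbxo31* alone passed in DOX against Control (0.48, adjusted p = 0.0327), and under library totals no gene of the list was higher and 1 was lower. *Trim54* (MuRF3), the most abundant, was at 0.19 (adjusted p = 0.112). None of the 15 passed in Tb-DOX against Tb in edgeR, and 1 was higher in DESeq2. Without DOX replicate 4 none of the 15 passed in DOX against Control, and without both libraries that stood apart 2 were higher.

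In hearts without a tumor DOX raised 6 and lowered 4 of 19 other FOXO targets, the latter near the 18.2% of all genes. The mitophagy receptor *Bnip3* rose by 1.47 (SE 0.236, adjusted p = 9.4e-05), from 171 ± 22.8 to 472 ± 157 CPM (SD, n = 5 each), and the repressor *Bcl6* fell by 1.08 (adjusted p = 0.000765). With a tumor *Pdk4* alone passed, which blocks the entry of pyruvate into oxidation and is the most abundant of them. *Pdk4* fell by 2.95 on the log2 scale (SE 0.511, adjusted p = 0.00277), from 991 ± 547.5 CPM in Tb to 128 ± 30.2 CPM in Tb-DOX, and stood at −0.88 (adjusted p = 0.166) without one. The difference between these effects was −2.07 (adjusted p = 0.0573), while that of *Bnip3*, −1.52, passed (adjusted p = 0.0135).

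Of 19 other glucocorticoid receptor targets, 6 rose and 2 fell in DOX against Control (median 0.67), 5 and 0 without DOX replicate 4, and 8 and 3 without both libraries that stood apart. The 8 called of 19 are a share near the 36.2% of all genes. *Hif3a* rose by 1.95 (adjusted p = 0.000761) and the clock gene *Per1* by 1.39 (SE 0.329, adjusted p = 0.00252). *Per1* was at 43.4 to 60.3 CPM in Control and 87.7 to 225 CPM in DOX, with no overlap. With a tumor *Per1* stood at −0.33 (adjusted p = 0.598), and the difference between its DOX effects, −1.72, passed (adjusted p = 0.0267). *Angptl4*, an inhibitor of lipoprotein lipase, alone passed in Tb-DOX against Tb (−2.46, adjusted p = 0.0180), and *Ptgds*, the most abundant of the list, did not pass in any comparison.

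The receptor itself, *Nr3c1*, fell in both drug comparisons, by 0.75 in hearts without a tumor (SE 0.138, adjusted p = 0.000307) and by 0.55 in tumor-bearing hearts (SE 0.132, adjusted p = 0.0202). Its levels were 123 ± 17.8 CPM in Control, 72.9 ± 1.84 in DOX, 120 ± 27.9 in Tb and 81.9 ± 9.42 in Tb-DOX. Of the 12 genes of the receptor and its cofactors, 4 fell and 1 rose in DOX against Control, and 3 fell in Tb-DOX against Tb. The 5 called of 12 in the first are near the 36.2% of all genes, and the 3 of 12 stand beside 4.72%. The co-chaperone *Fkbp4*, which counteracts FKBP5 at the receptor, fell by 1.04 (adjusted p = 0.00112), the chaperones *Ptges3* and *Stip1* fell too, and the coactivator *Crebbp* rose by 0.59 (adjusted p = 4.2e-05). With a tumor *Hsp90aa1* fell by 0.99 (adjusted p = 0.0219) and *Ptges3* by 0.39 (0.0215). *Hsp90ab1*, the most abundant, did not pass in either (−0.21 and −0.34).

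Of 21 genes of the insulin, Akt and mTORC1 pathway, which restrains FOXO factors and which REDD1 opposes, 13 were higher and 1 was lower in DOX than in Control hearts (median 0.48). The adaptor *Irs1* rose by 1.92 (SE 0.234, adjusted p = 8.2e-06), the receptor *Igf1r* by 1.09 (0.000535) and *Sesn1*, the most abundant, by 0.72 (0.00262), and the growth factor *Igf1* was the 1 that fell, by 1.08 (0.0141). Under library totals 9 rose and 1 fell. With a tumor 2 of the 21 rose, *Irs1* by 0.80 (adjusted p = 0.0383) and *Mtor* by 0.54 (0.00188). The DOX effect was smaller under the tumor for *Irs1* (difference −1.12, adjusted p = 0.0329) and *Igf1r* (−1.14, adjusted p = 0.0244).

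Of 9 KLF15 targets in amino acid and ion channel biology, 3 rose and 1 fell in DOX against Control, with *Got1* (0.68, adjusted p = 0.00085), the most abundant, among those that rose and *Gpt2* (−1.07, adjusted p = 0.000259) the one that fell, a share near the 36.2% of all genes. In Tb-DOX against Tb *Gpt* rose by 0.71 (adjusted p = 0.0248) and *Gpt2* fell by 0.75 (0.0215). Of 14 genes of the myostatin and activin pathway, *Fstl1* fell by 1.73 (adjusted p = 1.4e-06) without and by 0.75 (0.0144) with a tumor, and *Wfikkn2*, which binds myostatin, rose by 0.85 (0.000932) without one. With the tumor alone *Inhbb* was higher by 8.01 times (SE 0.686 on the log2 scale, adjusted p = 0.00829) and *Inhba* by 2.36 times (0.0378), both subunits of activins; *Inhbb* was at 1.77 to 38.2 CPM in Tb and at 0.573 to 1.87 CPM in Control. Of 4 further genes of the SGK and FOXO families and their targets, *Foxo4* fell by 0.48 (adjusted p = 0.000563) and *Nedd4l* by 0.41 (0.0126) with DOX without a tumor, and none passed with one.

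**Figure D5:**
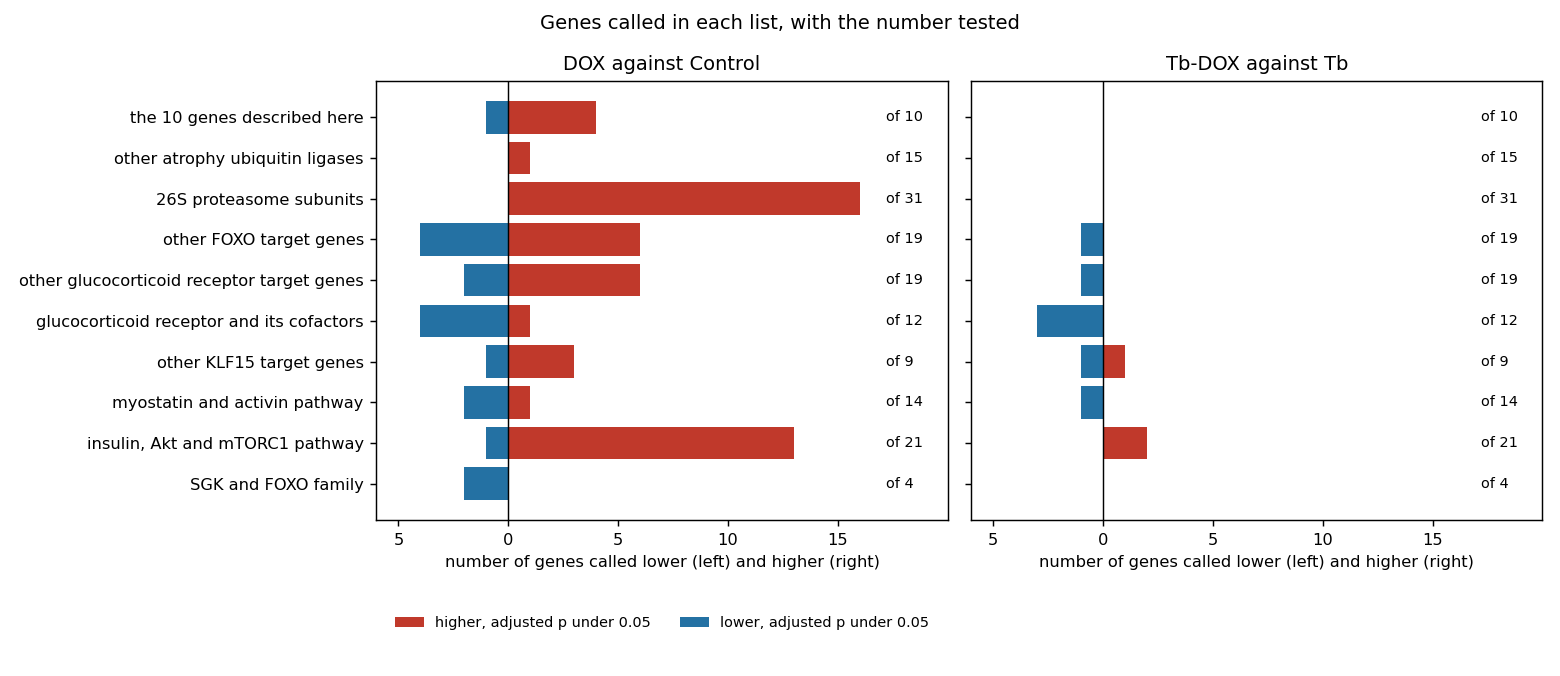
Number of genes called higher (bars to the right) and lower (bars to the left) at an adjusted p under 0.05 in each list, for DOX against Control and Tb-DOX against Tb, with the number tested at the right. The 16 proteasome and 13 insulin pathway genes that rose without a tumor stand against 0 and 2 with one. Of all genes tested, 36.2% passed without a tumor and 4.72% with one. The interaction called 5 of the 31 proteasome and 3 of the 21 insulin pathway genes, against 8.94% of all genes. A gene on more than 1 list counts in each.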

How the data were processed

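Heart mRNA of 21 mouse libraries was measured. In the table the authors deposited, each gene has for each library a raw read count and an FPKM value. The FPKM equals the deposited count per kb and library total in 100% of values (within 0.00501), and all its per-sample columns were mapped. The submitters' processing notes name cutadapt, FastQC, HISAT2, HTSeq 0.6.1, DESeq2 1.34.0 and build GRCm39, and the strand setting is not given in the sources used here. Groups and replicate numbers came from the labels, and no batch was given.

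Counts were tested with edgeR 4.0.16 (R 4.3.3; TMM, quasi-likelihood F tests, 1 fit with 1 coefficient per group). The filter on mean FPKM (0.5 or more) left 13990 genes, over which p-values were adjusted by Benjamini-Hochberg. Adjusted p-values in the text are edgeR's unless DESeq2 (1.42.0) or limma (3.58.1), used as alternatives, is named. SEs were taken as the fold change over the root of its F. Tested on simulated data for DOX against Control (13990 genes), the fit recovered 82 of 100 genes changed by a log2 fold of 1 and 100 of 100 changed by 2, with 10 false calls. For the interaction it recovered 54 and 89 of 100.

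The 10 genes and all lists were chosen with earlier results of these data known. The text names all 10 genes, the most abundant gene of each list, and the 3 genes most correlated with each of the 10. For DOX against Control and Tb-DOX against Tb it also names up to 2 called genes with the largest change per list. Called list genes of the other comparisons are named only in part. A gene not named there may have been called, as *Traf6* was in the interaction (−1.07, edgeR, adjusted p = 0.0462). Other list genes, such as *Igf1*, *Stip1* and *Crebbp*, were named after their values were seen. Libraries totalled 13521200 to 18601445 counts, of which *Mstn* had the fewest of the 10 genes. Replicates correlated at 0.922 to 0.991 on the log2 scale and differed by more than counting error (chi-square per degree of freedom at least 6.07). Other scalings, filters, tools, thresholds and the omission of single libraries were tried as alternatives.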

Additional observations from a re-analysis of the deposited data

Results flagged for a closer look

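In 4 of the 40 combinations of a gene and a group, 1 library lay far from the rest by Dixon's ratio, the gap to its nearest neighbour over the whole range of the group; chance alone flags about 5% of groups. *Trim63* in DOX replicate 4 had a ratio of 0.929 (1592 CPM, against 236 to 270.3 CPM in the other 4). *Sgk1* in Tb replicate 5 had a ratio of 0.649, with 3306 counts against 783 to 1393 in the other 5. *Tsc22d3* at 225.5 CPM and *Ddit4* at 114 CPM were both highest in Tb-DOX replicate 2, with ratios of 0.831 and 0.930. The limits were 0.71 for 5 libraries and 0.625 for 6.

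*Foxo1* was flagged because its DOX effect differed with and without a tumor. The tested difference was −0.632 on the log2 scale (edgeR, adjusted p = 0.0267). The same values put 5 of 5 DOX libraries above the Control mean and 5 of 5 Tb-DOX libraries below the Tb mean. That is a description of the tested values and not separate evidence, and the Tb-DOX and Tb libraries overlapped.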

How the results depend on the processing

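Of the 1575 alternative values of single genes, 1009 that leave out 1 library and 486 under other settings kept their direction and their side of the threshold; 47 changed sign. The number of the 10 genes called in DOX against Control, 5 with all libraries, was 2 in limma on log2(FPKM + 0.1) and on log2(FPKM + 1), 2 when a log2 fold change of 1 or more was also asked for, 1 at an adjusted p under 0.01, and 3 to 6 with single libraries left out. In Tb-DOX against Tb it was 0, and 0 to 1 with single libraries left out. For the interaction it was 1, and 0 under library totals, with the filter raised to a mean of 5 FPKM (which removes *Foxo1*), in both limma settings, when a log2 difference of 1 or more was also asked for and at an adjusted p under 0.01. It was 2 with no filter and in DESeq2, which gave *Trim63* no adjusted p in any comparison, and 0 to 2 with single libraries left out. In Tb against Control it was 0, 1 under library totals, and 0 to 1 with single libraries left out. In Tb-DOX against DOX it was 1, 0 at an adjusted p under 0.01, and 1 to 2 with single libraries left out.

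In limma (pseudocounts 0.1 and 1) the sign turned for *Fbxo32* in DOX against Control (−0.194 and −0.181), *Ddit4* in Tb-DOX against Tb (−0.045 and −0.041), *Klf15* in the interaction (0.112 and 0.091), and *Fbxo32* (0.216 and 0.202) and *Mstn* (0.301 and 0.047) in Tb-DOX against DOX. *Sgk1* in Tb against Control was −0.002 with the smaller pseudocount, and *Mstn* in Tb-DOX against DOX was 0.049 under library totals. Without both libraries that stood apart, *Fbxo32* was −0.409 in DOX against Control and 0.394 in Tb-DOX against DOX, *Trim63* was 0.077 in the latter, *Klf15* was 0.091 and *Ddit4* 0.011 in the interaction, and *Sgk1* was −0.316 in Tb against Control.

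With single libraries left out, values that changed sign ranged in DOX against Control from −0.404 to 0.423 for *Fbxo32*, −0.117 to 0.051 for *Foxo3* and −0.565 to 0.022 for *Mstn*. In Tb-DOX against Tb they ranged from −0.463 to 0.243 for *Ddit4* and −0.231 to 0.044 for *Tsc22d3*, and in the interaction from −0.354 to 0.192 for *Klf15* and −0.089 to 0.738 for *Fbxo32*. In Tb against Control *Sgk1* ranged from −0.313 to 0.265. In Tb-DOX against DOX the ranges were −0.454 to 0.073 for *Mstn*, −0.094 to 0.116 for *Foxo3*, −1.149 to 0.067 for *Trim63* and −0.441 to 0.386 for *Fbxo32*. Beyond the fewer genes or libraries that a setting leaves, the cause was not tested.

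Same-numbered libraries of different groups had residuals correlated at −0.261 to 0.233 (median −0.017, 5 of 30 pairs over 0.1), so the numbers were not used to pair libraries. With the replicate number as a block, 5, 0, 1, 0 and 1 of the 10 genes passed in DOX against Control, Tb-DOX against Tb, the interaction, Tb against Control and Tb-DOX against DOX, and *Fbxo32* was −0.037 in the first and 0.019 in the last, *Ddit4* −0.096 in Tb-DOX against Tb and *Klf15* 0.007 in the interaction.

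Counts over all genes moved by over 1.5 times as follows. In DOX against Control 5071 genes became 2496 with the filter at 5 FPKM and 3103 at an adjusted p under 0.01. In Tb-DOX against Tb 660 became 351 with only the groups compared, 1074 in DESeq2, 420 in limma with the smaller pseudocount, 1005 without both libraries that stood apart and 135 at the stricter p. For the interaction 1251 became 506 with the block, 2005 in DESeq2, 551 with the higher filter and 61 at the stricter p. In Tb against Control 879 became 469 with the block, 334 with the higher filter and 437 at the stricter p, and in Tb-DOX against DOX 2442 became 948 with the higher filter and 1079 at the stricter p. *Mstn*, at 2 to 52 counts per library, had the fewest counts of the 10.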
